A study of Homo sapiens with 12 samples.

Results

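10 genes of the integrated stress response were followed across all 12 libraries of the series. They are ATF4, DDIT3, PPP1R15A, TRIB3, ASNS, CHAC1, SESN2, DDIT4, VLDLR and CEBPG, and they were taken from the count table by gene symbol, whatever their values. All 10 symbols were found among the 42157 genes counted, and all 10 were among the 13696 genes with enough reads to test. HL-60, an established human acute myeloid leukemia (AML) cell line, was treated for 3 h with DMSO (mock), 1 µM daunorubicin (DNR), 0.5 µM ML-792 or both drugs (ML-792+DNR), with 3 replicates in each of the 4 groups. DNR is a DNA-intercalating anthracycline that poisons topoisomerase II, and ML-792 blocks the E1 enzyme that activates SUMO for conjugation to proteins. The study's methods describe the replicates as independent experiments. All were done on a single cell line, and polyadenylated RNA was sequenced.

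The integrated stress response is how cells react to amino acid shortage, misfolded protein, viral RNA or lack of heme. Each stress activates a kinase that phosphorylates the translation factor eIF2alpha, which slows protein synthesis in general but favours translation of the mRNA of ATF4, a transcription factor of the bZIP family. ATF4, with partners such as CEBPG, then activates genes of amino acid supply (ASNS), glutathione turnover (CHAC1) and mTORC1 restraint (SESN2, DDIT4), the pseudokinase TRIB3, and DDIT3, whose product CHOP is linked to cell death. PPP1R15A encodes GADD34, the phosphatase subunit that recruits a catalytic subunit to remove the phosphate from eIF2alpha, which closes the loop. The libraries measure mRNA only, so neither eIF2alpha phosphorylation nor ATF4 protein was assayed, and a bulk RNA level cannot tell fewer expressing cells from less RNA per cell.

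Upstream sequences of 5 of these genes are shown because 3 of them changed at least 2-fold with DNR (PPP1R15A, DDIT3 and VLDLR) and ASNS and CHAC1 are ATF4 targets that carry a match to the C/EBP-ATF response element. Each is the 250 bases before an annotated start site in the RefSeq table on GRCh38.p14, written 5′ to 3′ on the gene's strand, and capitals mark a match to 1 of 3 motifs. The motifs are the C/EBP-ATF response element core TGATGNAAN, the cyclic AMP response element TGACGTCA and the AP-1 site TGACTCA, each searched on both strands. The cyclic AMP response element and the AP-1 site were chosen after the results were known, and none of the matches in these windows overlapped another. PPP1R15A has its match at −58 to −51 counted from the start site (chr19:48872171-48872420, plus strand), DDIT3 at −241 to −235 (chr12:57520515-57520764, minus strand), ASNS at −68 to −60 (chr7:97872409-97872658, minus strand) and CHAC1 at −210 to −202 on the opposite strand, where it reads as the reverse complement (chr15:40953221-40953470, plus strand). VLDLR (chr9:2621537-2621786, plus strand) has no match in this window.
PPP1R15A: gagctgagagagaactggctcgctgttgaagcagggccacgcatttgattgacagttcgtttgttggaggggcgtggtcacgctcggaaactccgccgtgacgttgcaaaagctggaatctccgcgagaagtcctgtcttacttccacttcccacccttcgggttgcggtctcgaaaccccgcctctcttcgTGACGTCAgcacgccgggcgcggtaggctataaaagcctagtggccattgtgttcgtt
DDIT3: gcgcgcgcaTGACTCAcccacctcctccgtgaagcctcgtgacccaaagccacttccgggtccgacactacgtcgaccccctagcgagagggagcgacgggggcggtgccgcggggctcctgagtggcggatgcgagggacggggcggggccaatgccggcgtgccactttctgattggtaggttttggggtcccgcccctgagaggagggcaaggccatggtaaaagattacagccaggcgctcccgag
VLDLR: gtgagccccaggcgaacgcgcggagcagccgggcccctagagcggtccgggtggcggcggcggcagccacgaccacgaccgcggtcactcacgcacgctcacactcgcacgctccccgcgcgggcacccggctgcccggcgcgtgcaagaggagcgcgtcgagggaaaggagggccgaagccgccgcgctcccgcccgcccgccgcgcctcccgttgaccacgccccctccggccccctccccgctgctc
ASNS: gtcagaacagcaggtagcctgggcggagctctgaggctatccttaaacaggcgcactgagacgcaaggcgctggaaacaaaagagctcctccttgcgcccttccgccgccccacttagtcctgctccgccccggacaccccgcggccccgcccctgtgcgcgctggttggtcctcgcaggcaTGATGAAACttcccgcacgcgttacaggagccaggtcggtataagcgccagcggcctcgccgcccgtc
CHAC1: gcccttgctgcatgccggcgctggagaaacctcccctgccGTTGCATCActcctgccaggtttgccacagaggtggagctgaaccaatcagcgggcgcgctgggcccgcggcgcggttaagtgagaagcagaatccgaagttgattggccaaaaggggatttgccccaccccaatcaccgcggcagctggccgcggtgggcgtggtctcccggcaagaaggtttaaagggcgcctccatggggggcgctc

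Among 35116 windows of the same length from all genes in that table, the C/EBP-ATF core occurred in 3.13%, the cyclic AMP response element in 1.65% and the AP-1 site in 4.2%. All 10 genes had an entry, with 16 windows in all, and besides a second DDIT3 window that holds the same site the only other match was a C/EBP-ATF core at −42 to −34 from the second annotated start of CEBPG. A match describes letters and is not evidence of binding.

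The libraries held 28647951 to 46451654 reads in genes, of which the 10 genes together took 0.0734% to 0.102%. Myeloid markers were present throughout, led by myeloperoxidase (MPO, mean 10927 counts per 1000000 reads, CPM) with CD33 at 73.3 CPM, while ELANE was low at 1.23 CPM. No read fell on CD3E, MS4A1, HBB or EPCAM, the lymphocyte list summed to 0.360 to 0.985 CPM and the erythroid list to 0.518 to 1.31 CPM, and the stromal and epithelial list (143 to 187 CPM) was almost wholly VIM (mean 161 CPM), which HL-60 cells express. Mitochondrial transcripts took 4.01% to 6.37% of reads in the 4 libraries of replicate 1 against 2.49% to 3.48% in the others, so the leading values are also given from replicates 2 and 3 only.

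DNR raised and lowered these genes in equal number, and the largest changes were in the phosphatase subunit, CHOP and a lipoprotein receptor rather than in the amino acid genes. Against DMSO, PPP1R15A and DDIT3 rose and VLDLR fell by at least 2-fold with an adjusted p below 0.05 (edgeR quasi-likelihood test, Benjamini-Hochberg adjustment over all tested genes), which is 3 of 10 genes where 6.98% of all tested genes passed. On the adjusted p alone, without the 2-fold minimum, SESN2 also rose and DDIT4 and TRIB3 also fell, which is 6 of 10 genes against 30% of all tested genes. The libraries of both groups did not overlap for 7 of 10 genes, against 46.6% of all tested genes. The median log2 fold change was −0.074 over the 10 genes and 0.0099 over all tested genes. The 10 genes were chosen with earlier results of these data known, so these shares only describe them. The plot of values by library shows each gene in the 4 groups.

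**Figure D1:**
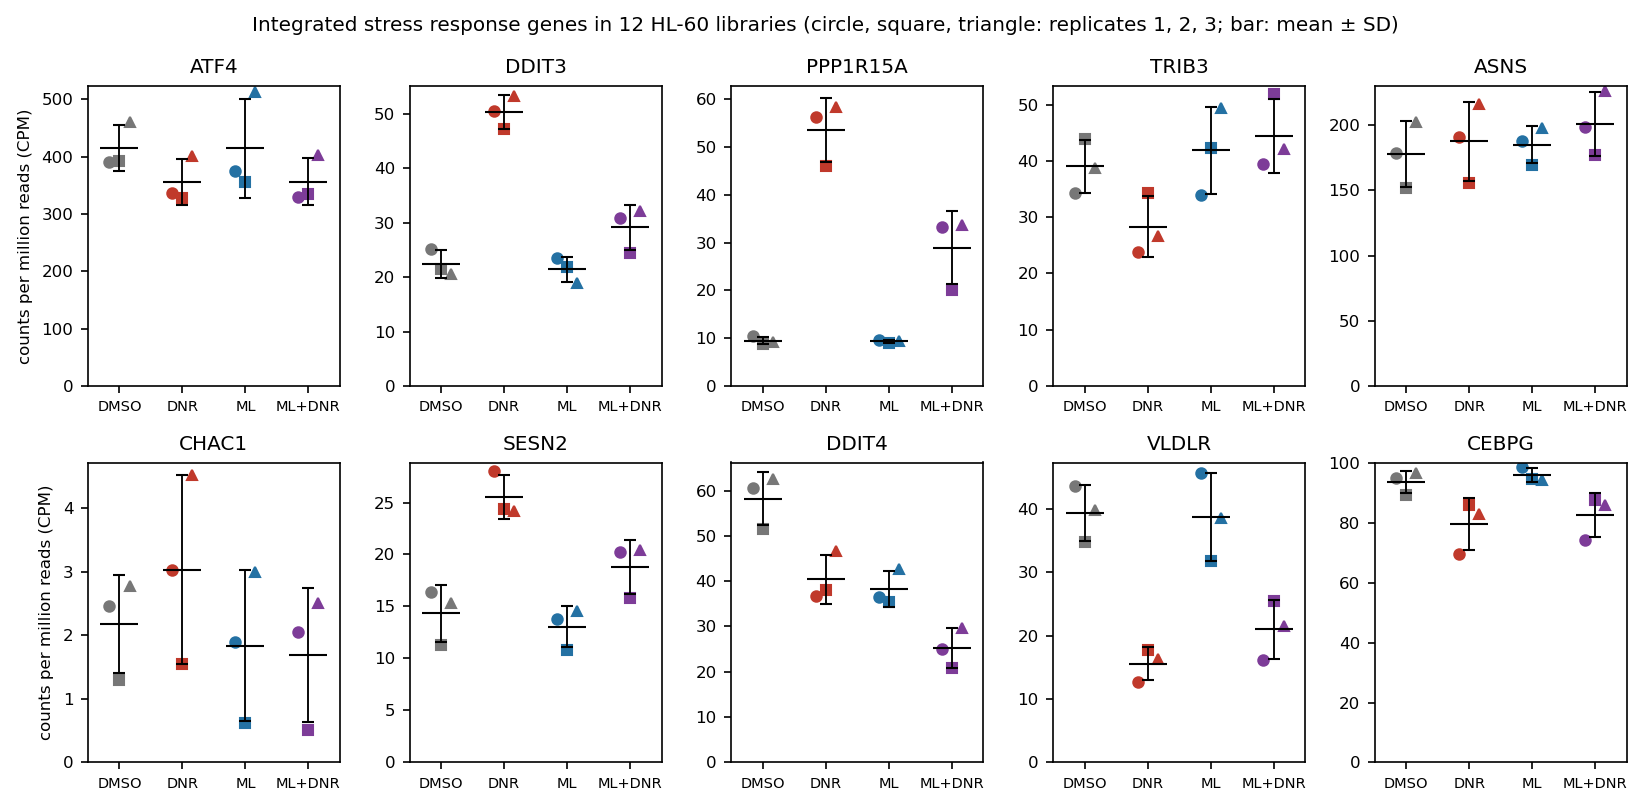
Counts per 1000000 reads (CPM, linear axes from 0) of the 10 genes in each library, by group (ML stands for ML-792), with circles, squares and triangles for replicates 1, 2 and 3 and bars for the mean ± SD. PPP1R15A and DDIT3 are highest in all 3 DNR libraries, DDIT4 is lowest in ML-792+DNR, and ATF4, ASNS and CHAC1 overlap in all groups.

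ATF4 (chromosome 22, 39915700 to 39918688, plus strand, GRCh37), the central transcription factor, was the most abundant of the 10 mRNAs. Its mean was lower in both DNR-treated groups, whose libraries overlapped those of DMSO. It stood at 391, 393 and 461 CPM in the DMSO replicates 1, 2 and 3, at 336, 328 and 401 CPM in DNR, at 375, 356 and 513 CPM in ML-792 and at 330, 335 and 403 CPM in ML-792+DNR. Replicate 3 was the highest in every group and the groups overlapped in all 5 comparisons. Between libraries of the same replicate number, the log2 ratio of DNR to DMSO was −0.22, −0.26 and −0.20 in replicates 1, 2 and 3. That of ML-792+DNR to DMSO was −0.25, −0.23 and −0.19. The log2 fold change was −0.22 ± 0.14 (SE) for DNR against DMSO (95% interval −0.52 to 0.069, edgeR adjusted p = 0.239) and −0.0012 ± 0.14 for ML-792 against DMSO. A fit with the replicate number as a block, allowed where same-numbered libraries deviate together, gave an adjusted p of 0.0105 for ML-792+DNR against DMSO (log2 −0.22; edgeR, 0.0105 to 0.492 over the alternatives). For DNR against DMSO, where the numbers were not taken to pair the libraries, the block gave log2 −0.23 (edgeR adjusted p = 0.0111, and 0.0111 to 0.502 over the alternatives).

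DDIT3 (chromosome 12, 57910371 to 57915520, minus strand), which encodes CHOP, rose with DNR and was lower in ML-792+DNR than in DNR alone. It measured 25.2, 21.5 and 20.5 CPM in DMSO, 50.6, 47.2 and 53.3 CPM in DNR, 23.6, 21.8 and 19.0 CPM in ML-792 and 30.9, 24.4 and 32.2 CPM in ML-792+DNR. Every DNR library lay above every library of the other groups, and ML-792+DNR replicate 2 lay below the highest DMSO library. The rise with DNR was 2.25-fold (95% interval 1.87 to 2.70; log2 1.17 ± 0.12, edgeR adjusted p = 1.92e-05), and log2 1.25 with replicates 2 and 3 only (adjusted p = 0.00105). ML-792+DNR against DNR gave a ratio of 0.578 (0.481 to 0.694; log2 −0.79 ± 0.12, adjusted p = 0.0127), short of the 2-fold minimum.

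That last difference had adjusted p values of 0.0513 without DNR replicate 1, 0.0643 without DNR replicate 3 and 0.147 with replicates 2 and 3 only (edgeR), at log2 values of −0.79, −0.76 and −0.83. Its adjusted p was below 0.05 in 12 of the 15 alternatives, with 0.00285 in edgeR with the replicate block and 9.59e-07 by DESeq2. The exons of DDIT3 share 219 bases with MARS1 on the other strand (6901 to 14007 reads per library under the symbol MARS), and whether the authors counted by strand is not stated in the sources read. They also share 105 bases with a gene model on the same strand.

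CEBPG (chromosome 19, 33864591 to 33873592, plus strand), the bZIP partner that binds the response element with ATF4, kept the narrowest spread of the 10 genes. Its mean was 93.7 ± 3.72 CPM in DMSO, 79.6 ± 8.68 in DNR, 96.0 ± 2.40 in ML-792 and 82.6 ± 7.37 in ML-792+DNR (SD, n = 3). All 3 DNR libraries (69.8, 86.1 and 82.9 CPM) lay below all DMSO libraries (95.03, 89.5 and 96.6 CPM), but the difference did not pass (log2 −0.24 ± 0.089, edgeR adjusted p = 0.0614; 0.0293 without DNR replicate 2, and 0.0293 to 0.280 over the alternatives).

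PPP1R15A (chromosome 19, 49375469 to 49379316, plus strand) showed the largest change of the 10 genes. It measured 10.4, 8.85 and 9.28 CPM in DMSO, 56.3, 46.1 and 58.5 CPM in DNR, 9.59, 8.98 and 9.38 CPM in ML-792 and 33.2, 20.1 and 33.6 CPM in ML-792+DNR. The DNR libraries stood highest, those of ML-792+DNR between them and the rest, and DMSO and ML-792 overlapped. DNR raised it 5.63-fold (95% interval 4.34 to 7.31; log2 2.49 ± 0.17, edgeR adjusted p = 6.87e-07) and by log2 2.52 with replicates 2 and 3 only (adjusted p = 0.000317). In the presence of ML-792, DNR raised it 3.10-fold over ML-792 alone (2.40 to 4.01; log2 1.63 ± 0.17, adjusted p = 3.11e-05).

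The level of PPP1R15A in ML-792+DNR was 0.539 of that in DNR (95% interval 0.422 to 0.689; log2 −0.89 ± 0.16, edgeR adjusted p = 0.0272). This adjusted p became 0.0942 without DNR replicate 1, 0.127 without DNR replicate 3, 0.0524 without ML-792+DNR replicate 1, 0.106 in a fit of these 2 groups alone and 0.288 with replicates 2 and 3 only, while the log2 value stayed between −1.01 and −0.68 over all alternatives. Without ML-792+DNR replicate 3 it passed the 2-fold minimum as well (log2 −1.01, adjusted p = 0.0467).

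TRIB3 (chromosome 20, 343479 to 378203, plus strand), a pseudokinase that binds ATF4 and restrains it, was lowest in DNR alone. It measured 34.4, 43.9 and 38.8 CPM in DMSO, 23.9, 34.3 and 26.8 CPM in DNR, 33.9, 42.4 and 49.4 CPM in ML-792 and 39.4, 51.9 and 42.2 CPM in ML-792+DNR. DNR replicate 2, at 34.3 CPM, lay just below the lowest DMSO library at 34.4 CPM. Against DMSO, DNR gave log2 −0.46 ± 0.16 (edgeR adjusted p = 0.0464), which became 0.145 or 0.0887 on omitting DMSO replicate 2 or 3 and 0.201 or 0.144 on omitting DNR replicate 1 or 3. It was 0.0582 with scaling by library size only, 0.0521 with a minimum mean of 1 CPM and 0.0926 with replicates 2 and 3 only. ML-792+DNR against DNR gave log2 0.65 ± 0.16 in the other direction, with libraries that did not overlap (adjusted p = 0.0876; 0.00552 with the replicate block, 0.0011 to 0.325 over the alternatives).

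The amino acid and glutathione genes gave no call in any comparison. ASNS (chromosome 7, 97480989 to 97501854, minus strand), asparagine synthetase, measured 179, 152 and 203 CPM in DMSO, 191, 156 and 216 CPM in DNR, 188, 170 and 198 CPM in ML-792 and 199, 177 and 226 CPM in ML-792+DNR. The groups overlapped in all 5 comparisons, and DNR against DMSO gave log2 0.077 ± 0.13 (95% interval −0.20 to 0.36, edgeR adjusted p = 0.704), so that a rise of 2-fold lies outside the interval. Its exons share 2374 bases with an overlapping gene model on the same strand. The replicate block gave an adjusted p of 0.0196 for ML-792+DNR against DMSO (log2 0.18; 0.0196 to 0.728 over the alternatives).

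CHAC1 (chromosome 15, 41245160 to 41248710, plus strand), which degrades glutathione, was the least abundant of the 10 genes in DMSO per length, with 21 to 145 reads per library. It measured 2.46, 1.30 and 2.78 CPM in DMSO, 3.03, 1.55 and 4.52 CPM in DNR, 1.89, 0.627 and 3.00 CPM in ML-792 and 2.06, 0.503 and 2.51 CPM in ML-792+DNR. Replicate 2 was the lowest and replicate 3 the highest in every group, and all groups overlapped. The log2 fold change for DNR against DMSO was 0.47 ± 0.56 (95% interval −0.73 to 1.66, edgeR adjusted p = 0.574), so that the interval reaches from a fall of less than 2-fold to a rise of more than 2-fold. With the replicate block, ML-792+DNR against DNR gave log2 −0.91 (adjusted p = 0.0438; 0.0438 to 0.850 over the alternatives).

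The mTORC1 brakes SESN2 and DDIT4 moved in opposite directions with DNR. SESN2 (chromosome 1, 28586029 to 28609002, plus strand), a leucine sensor that is also a p53 target, measured 16.4, 11.3 and 15.3 CPM in DMSO, 28.0, 24.3 and 24.2 CPM in DNR, 13.8, 10.8 and 14.5 CPM in ML-792 and 20.3, 15.8 and 20.4 CPM in ML-792+DNR. All DNR libraries lay above all others. DNR raised it 1.78-fold (95% interval 1.40 to 2.25; log2 0.83 ± 0.16, edgeR adjusted p = 0.00159), and the adjusted p alone held in each of the 15 alternatives. ML-792+DNR against DNR gave log2 −0.44 ± 0.16 (adjusted p = 0.246; 0.0249 with the replicate block, 0.0249 to 0.609 over the alternatives).

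DDIT4 (chromosome 10, 74033678 to 74035794, plus strand), which encodes the mTORC1 inhibitor REDD1, had a lower mean with each drug and the lowest with both. It measured 60.6, 51.6 and 62.5 CPM in DMSO, 36.7, 38.0 and 46.6 CPM in DNR, 36.6, 35.4 and 42.8 CPM in ML-792 and 25.0, 20.9 and 29.7 CPM in ML-792+DNR. The libraries of DMSO lay above all others, those of ML-792+DNR below all others, and DNR and ML-792 overlapped; it was the only one of the 10 genes whose groups did not overlap in any of the 5 comparisons. DNR against DMSO gave log2 −0.53 ± 0.13 (edgeR adjusted p = 0.0100, or 0.148 with replicates 2 and 3 only) and ML-792+DNR against DMSO gave log2 −1.21 ± 0.14 (adjusted p = 3.93e-05, a ratio of 0.432).

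For ML-792 alone, DDIT4 gave log2 −0.61 ± 0.13 against DMSO (95% interval −0.90 to −0.31), with an edgeR adjusted p of 0.115. The adjusted p was 0.00344 with the replicate block, 0.00507 by DESeq2 and 0.0013 without the count filter, and ranged from 0.0013 to 0.9999 over the alternatives, the highest value with replicates 2 and 3 only. ML-792+DNR against DNR gave log2 −0.68 ± 0.14 (adjusted p = 0.0394), which passed in the fits without ML-792+DNR replicate 3 (0.0428) and with the replicate block (0.0016) but gave 0.0675 to 0.177 on leaving out any of the other 5 libraries. It also gave 0.0633 with scaling by library size only, 0.106 in a fit of these 2 groups alone and 0.318 with replicates 2 and 3 only. The mean effect of ML-792 over both pairs of groups, a comparison added after these values were seen, was log2 −0.64 ± 0.096 for DDIT4 (adjusted p = 0.00508; 0.137 with replicates 2 and 3 only).

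VLDLR (chromosome 9, 2621182 to 2660056, plus strand), the very-low-density lipoprotein receptor, an ATF4 target under stress in other cell types, fell with DNR. It measured 43.5, 34.7 and 39.8 CPM in DMSO, 12.7, 17.7 and 16.3 CPM in DNR, 45.6, 31.8 and 38.6 CPM in ML-792 and 16.2, 25.4 and 21.5 CPM in ML-792+DNR. Both groups with DNR lay below both groups without it, and they overlapped each other. DNR against DMSO gave a ratio of 0.395 (95% interval 0.303 to 0.516; log2 −1.34 ± 0.18, edgeR adjusted p = 0.000117), and log2 −1.14 with replicates 2 and 3 only (adjusted p = 0.00134). The antisense gene VLDLR-AS1 shares 172 exon bases with it and had 6 to 33 reads per library against 439 or more for VLDLR. Another gene model on the opposite strand shares 633 exon bases with VLDLR.

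**Figure D2:**
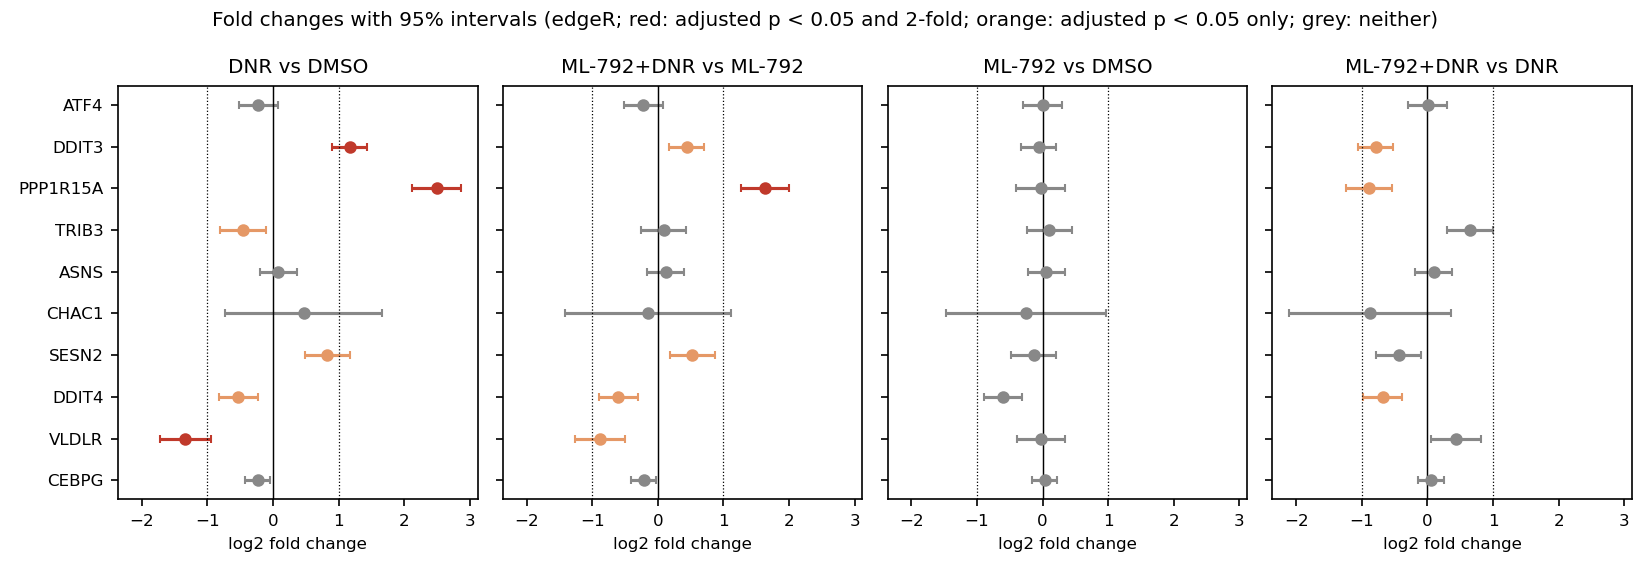
Log2 fold changes (horizontal axes) of the 10 genes with 95% intervals from edgeR in 4 comparisons, with dotted lines at 2-fold, red for adjusted p below 0.05 with at least 2-fold, orange for adjusted p alone and grey for neither. Without and with ML-792, DNR gave 2.49 and 1.63 for PPP1R15A and 1.17 and 0.44 for DDIT3, a difference that did not pass as an interaction.

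ML-792 alone changed none of the 10 genes by edgeR at either threshold, where 0.0803% of all tested genes passed with the 2-fold minimum and 0.241% on the adjusted p alone. Only 1 gene, DDIT4, had an unadjusted p below 0.05, and DESeq2 and limma voom also gave 0 with the 2-fold minimum. With the replicate block 1 of 10 genes, DDIT4, passed the adjusted p alone, against 1.12% of all tested genes. The libraries did not overlap for 1 of 10 genes, against 10.5% of all tested genes. Intervals excluded a 2-fold change in either direction for 9 of the 10 genes, the exception being CHAC1 (log2 −1.48 to 0.97).

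ML-792+DNR against DMSO gave 2 of 10 genes with the 2-fold minimum, PPP1R15A higher (3.04-fold, 95% interval 2.35 to 3.92) and DDIT4 lower, against 6.48% of all tested genes. On the adjusted p alone 4 of 10 genes passed, against 35.4%, the others being DDIT3 (log2 0.38 ± 0.12, edgeR adjusted p = 0.0294) and VLDLR (log2 −0.90 ± 0.18, adjusted p = 0.00174). DDIT3 gave adjusted p values of 0.0847 to 0.117 without DMSO replicate 2 or 3 or without ML-792+DNR replicate 1 or 3, and VLDLR reached 2-fold without ML-792+DNR replicate 2 (log2 −1.07). With the replicate block 7 of 10 passed the adjusted p alone, against 49% of all tested genes, adding ATF4, ASNS and SESN2 (log2 0.40, adjusted p = 0.00549; 0.00549 to 0.2499 over the alternatives). The libraries did not overlap for 4 of 10 genes, against 48.7% of all tested genes. This comparison shares its DMSO libraries with those of DNR and ML-792 alone.

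Within ML-792-treated cells, DNR changed 1 of 10 genes with the 2-fold minimum, PPP1R15A, against 6.34% of all tested genes, and 5 of 10 on the adjusted p alone, against 33.8%. The others were DDIT3 (log2 0.44 ± 0.12, edgeR adjusted p = 0.0153) and SESN2 (log2 0.53 ± 0.16, adjusted p = 0.0211), both higher, and DDIT4 (log2 −0.60 ± 0.14, adjusted p = 0.00471) and VLDLR (log2 −0.88 ± 0.18, adjusted p = 0.00229), both lower. The libraries did not overlap for 6 of 10 genes, against 42.8% of all tested genes. TRIB3, lower with DNR alone, gave log2 0.089 ± 0.16 here. DDIT3 gave adjusted p values of 0.0537 to 0.0683 without ML-792 replicate 3 or ML-792+DNR replicate 1 or 3, SESN2 gave 0.0750 to 0.0892 without ML-792 replicate 2 or ML-792+DNR replicate 1 or 3, and VLDLR reached 2-fold without ML-792 replicate 2 (log2 −1.002) or ML-792+DNR replicate 2 (log2 −1.04). With the replicate block 7 of 10 passed the adjusted p alone, against 46.7%, adding ATF4 (adjusted p = 0.0155; 0.0155 to 0.802 over the alternatives) and CEBPG (0.0384; 0.0384 to 0.334).

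The comparison of ML-792+DNR with DNR asks what blocking SUMOylation does to these genes in DNR-treated cells. None of the 10 passed with the 2-fold minimum by edgeR, DESeq2 or limma voom, where 0.197% of all tested genes passed by edgeR, and 6 of 10 had an unadjusted p below 0.05. On the adjusted p alone DDIT3, PPP1R15A and DDIT4 were lower, 3 of 10 genes against 0.745% of all tested genes. With the replicate block 6 of 10 passed, against 3.94%, which added SESN2 and CHAC1, lower, and TRIB3, higher. The median log2 fold change was −0.22 over the 10 genes and 0.0015 over all tested genes, and libraries did not overlap for 5 of 10 genes against 18.7% of all tested genes.

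Whether ML-792 alters the effect of DNR was tested by the interaction, the difference between the DNR effects with and without ML-792. No gene passed at either threshold, 0% of all tested genes with the 2-fold minimum and 0% on the adjusted p alone, and DESeq2 and limma voom also called 0 of the 10 genes. Among the 10 genes 3 had an unadjusted p below 0.05, with DDIT3 at log2 −0.73 (95% interval −1.10 to −0.35, edgeR adjusted p = 0.787), PPP1R15A at −0.86 (−1.37 to −0.35, adjusted p = 0.920) and TRIB3 at 0.55 (0.058 to 1.04, adjusted p = 0.999). None of these passed in any alternative, where the lowest adjusted p was 0.0634 for DDIT3 (DESeq2). It was 0.0905 for PPP1R15A (edgeR without the count filter) and 0.316 for TRIB3 (edgeR with the replicate block). The DDIT4 interaction was log2 −0.078 (−0.49 to 0.33). The mean ML-792 effect over both pairs, a comparison added after values were seen, passed the adjusted p alone for 2 of 10 genes, against 1.54% of all tested genes. No gene of the 10 passed with the 2-fold minimum, against 0.19%. Those 2 were DDIT4 and DDIT3, both lower, the latter at log2 −0.43 (edgeR adjusted p = 0.0254, and 0.0511 to 0.213 in 7 of the 20 alternatives). For DDIT3 this mean combines log2 −0.062 ± 0.12 without DNR and −0.79 ± 0.12 with DNR.

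Other genes of the pathway, in lists chosen by role with earlier results of these data known, moved in part. None of the 4 eIF2alpha kinases was called in any comparison, where at most 6.98% of all tested genes passed (DNR against DMSO). A list of 4 genes is too short to be told from that share. EIF2AK1, the heme-regulated kinase, measured 183 ± 9.94 CPM in DMSO and 198 ± 12.6 CPM in DNR (SD, n = 3), and EIF2AK4, the amino acid sensor GCN2, 54.0 ± 2.21 and 51.4 ± 4.61 CPM. None of 16 genes for eIF2, eIF2B and the eIF2alpha phosphatases was called, against the same share. PPP1CC, a catalytic subunit that GADD34 recruits, fell on the adjusted p alone with DNR (405 ± 19.9 to 313 ± 14.0 CPM; log2 −0.37 ± 0.076, edgeR adjusted p = 0.00255). EIF2S3, an eIF2 subunit, stood at 651 and 708 CPM. Among these 16 genes 1 rose and 2 fell on the adjusted p alone, where 30% of all tested genes passed.

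The 15 bZIP genes whose products can pair with ATF4 or CHOP held the largest changes. With DNR 5 rose and 1 fell by at least 2-fold, against 6.98% of all tested genes, with a median log2 of 0.65 against 0.0099 over all tested genes. This list was chosen with earlier results of these data known, so its share and median only describe it. JUN rose from 4.06 ± 1.55 to 113 ± 34.2 CPM (log2 4.81 ± 0.31, edgeR adjusted p = 3.95e-07), ATF3, itself induced by ATF4 in other settings, from 2.32 ± 0.211 to 40.5 ± 3.34 CPM (log2 4.12 ± 0.26) and FOS from 1.35 ± 0.155 to 11.6 ± 1.78 CPM (log2 3.10 ± 0.27). JUNB (log2 2.22) and MAFF (log2 1.83) also rose, and CEBPA, a myeloid differentiation factor, fell from 144 ± 12.9 to 60.4 ± 9.96 CPM (log2 −1.26 ± 0.15); these 3 are named after their values were seen. In ML-792+DNR, ATF3 measured 23.8 ± 7.998 CPM and JUN 88.2 ± 20.2 CPM. None of the 15 was called against DNR alone, where 0.197% of all tested genes passed, a share that 15 genes are too few to be told from. In that comparison 8 of the 15 had an unadjusted p below 0.05, and 1 was lower on the adjusted p alone, against 0.745% of all tested genes. Against DMSO and against ML-792, which share the ML-792+DNR libraries, 6 of the 15 rose in ML-792+DNR, where 6.48% and 6.34% of all tested genes passed.

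Among 20 ATF4 targets of amino acid supply none was called in any comparison, where at most 6.98% of all tested genes passed (DNR against DMSO). With DNR 1 rose and 3 fell on the adjusted p alone, where 30% of all tested genes passed. The list had a median log2 of 0.0098 with DNR against 0.0099 over all tested genes. SHMT2, of mitochondrial serine metabolism, measured 365 ± 55.4 and 394 ± 54.6 CPM in DMSO and DNR, and MTHFD2, of the folate cycle, 294 ± 29.3 and 328 ± 18.6 CPM. The list of 13 ATF4-linked aminoacyl-tRNA synthetase genes had 1 fall and 0 rise on the adjusted p alone, again against 30%, and 1 of 13 had a positive log2 value with DNR (median −0.13). NARS measured 671 ± 40.0 and 656 ± 31.5 CPM in DMSO and DNR, and IARS 529 ± 34.9 and 485 ± 24.7 CPM.

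Of 20 other ATF4 and CHOP targets 17 were tested (NUPR1, GDF15 and FGF21 had too few reads), and 2 rose by at least 2-fold with DNR, where 6.98% of all tested genes passed. SQSTM1, an autophagy receptor that is also an NRF2 target, rose from 34.3 ± 1.27 to 121 ± 19.3 CPM (log2 1.82 ± 0.14, edgeR adjusted p = 1.51e-06), and PMAIP1, a pro-apoptotic gene also induced by p53, from 64.1 ± 1.17 to 220 ± 10.2 CPM (log2 1.78 ± 0.071, adjusted p = 6.89e-09). Both also rose in ML-792+DNR against DMSO and against ML-792, and on the adjusted p alone 7 of the 17 rose and 2 fell with DNR (30% of all tested genes passed). None of 22 genes of the ATF6 and XBP1 branches of the endoplasmic reticulum stress response was called with DNR alone, where 4 rose and 4 fell on the adjusted p alone, a share near the 30% of all tested genes. The chaperone calreticulin (CALR) measured 2843 ± 122 and 2568 ± 112 CPM in DMSO and DNR, calnexin (CANX) 1944 ± 174 and 1949 ± 52.1 CPM, and DNAJB9 passed in ML-792+DNR against DMSO (10.9 ± 1.64 to 25.0 ± 2.49 CPM; log2 1.20 ± 0.13).

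Relatives of the mTORC1 brakes gave no call in any comparison, where at most 6.98% of all tested genes passed (DNR against DMSO). Of 12 genes related to SESN2 and DDIT4 11 were tested, and with DNR 2 rose and 3 fell on the adjusted p alone (30% of all tested genes passed), among them PRKAA1, an AMPK subunit (102 ± 7.02 to 76.5 ± 3.64 CPM; log2 −0.41 ± 0.084, edgeR adjusted p = 0.00236). TSC2, an inhibitor of mTORC1 signalling, measured 43.0 ± 3.31 and 47.6 ± 4.04 CPM. LRP8, the receptor most like VLDLR, measured 186 ± 2.96 and 154 ± 9.54 CPM in DMSO and DNR (log2 −0.27 ± 0.077, adjusted p = 0.0185), and SORL1 measured 102.0 ± 2.96 and 90.6 ± 8.82 CPM.

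**Figure D3:**
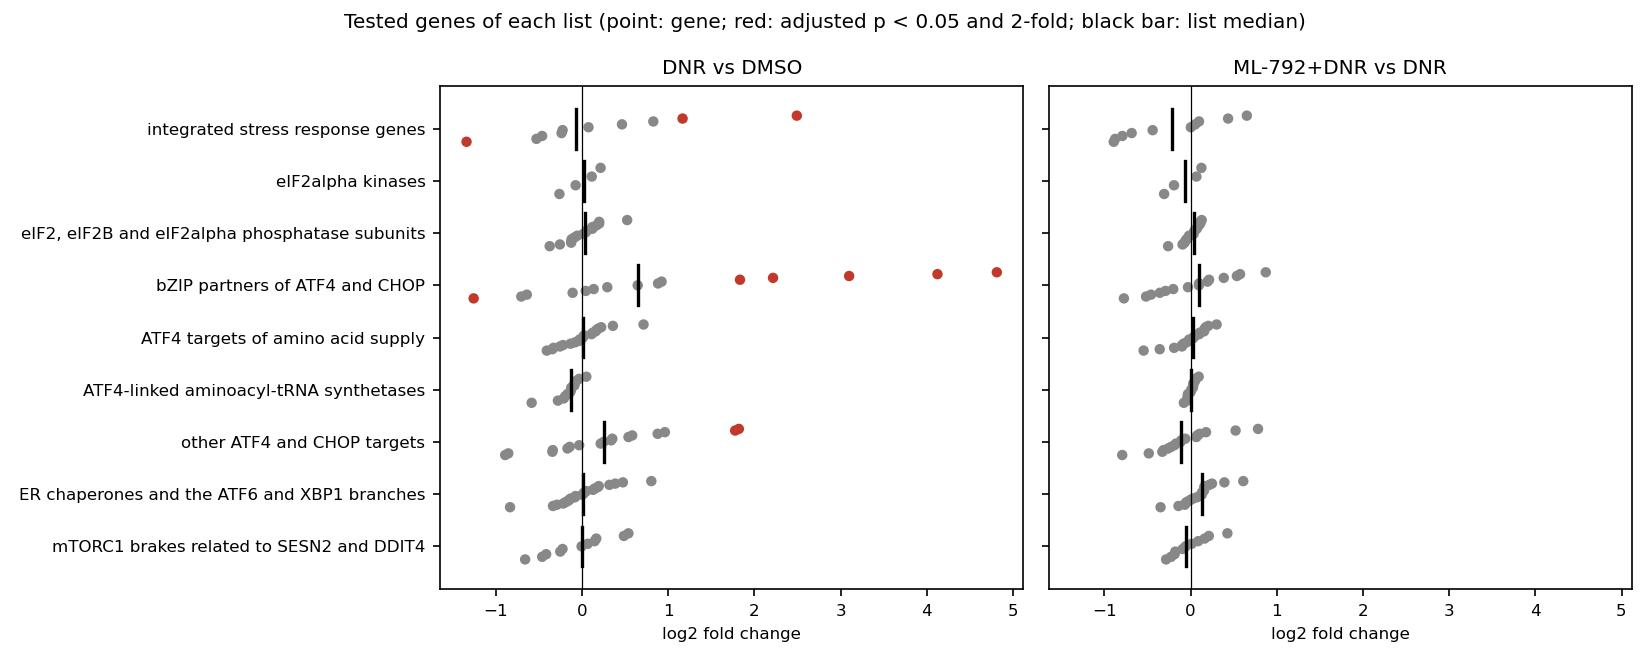
Log2 fold changes (horizontal axes) of the tested genes in each list for DNR against DMSO and for ML-792+DNR against DNR, 1 point per gene in order of value, red where the adjusted p was below 0.05 with at least 2-fold, and black bars for list medians. The calls with DNR lie in the 10 integrated stress response genes, the bZIP partners and the other ATF4 and CHOP targets. The right panel holds none, in a comparison where 0.197% of all tested genes passed.

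Levels of the 10 genes can be ranked only per length, here as CPM per kilobase of 1 transcript per gene. In DMSO the order was ATF4 (292 ± 28.2 CPM per kilobase; SD, n = 3), ASNS (74.6 ± 10.7), DDIT4 (33.3 ± 3.33), CEBPG (25.1 ± 0.996), DDIT3 (24.8 ± 2.77), TRIB3 (16.6 ± 2.02), VLDLR (4.27 ± 0.478), SESN2 (4.14 ± 0.784), PPP1R15A (4.04 ± 0.337) and CHAC1 (1.43 ± 0.512). The levels of CEBPG and DDIT3 lay within their spread of each other, as did those of VLDLR, SESN2 and PPP1R15A. In DNR, DDIT3 followed ATF4 and ASNS at 55.8 ± 3.39, PPP1R15A at 22.8 ± 2.82 lay beside DDIT4 (23.1 ± 3.07) and CEBPG (21.3 ± 2.33), and VLDLR (1.69 ± 0.285) and CHAC1 (2.00 ± 0.977) were lowest, within their spread of each other. In ML-792+DNR, PPP1R15A was at 12.3 ± 3.28 and DDIT4 at 14.4 ± 2.53.

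Part of the spread followed the replicate number. ATF4, ASNS, CHAC1 and DDIT4 were highest in replicate 3 in all 4 groups, PPP1R15A, ASNS and CHAC1 were lowest in replicate 2 in all 4 groups, and TRIB3 was lowest in replicate 1 in all 4 groups. For CHAC1 the mean deviation from the group's log2 CPM was 0.30 in replicate 1, −1.02 in replicate 2 and 0.72 in replicate 3. ATF4 deviated by −0.097, −0.12 and 0.21 in the same order. PPP1R15A and DDIT3 departed most in ML-792+DNR replicate 2 (−0.49 and −0.25).

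**Figure D4:**
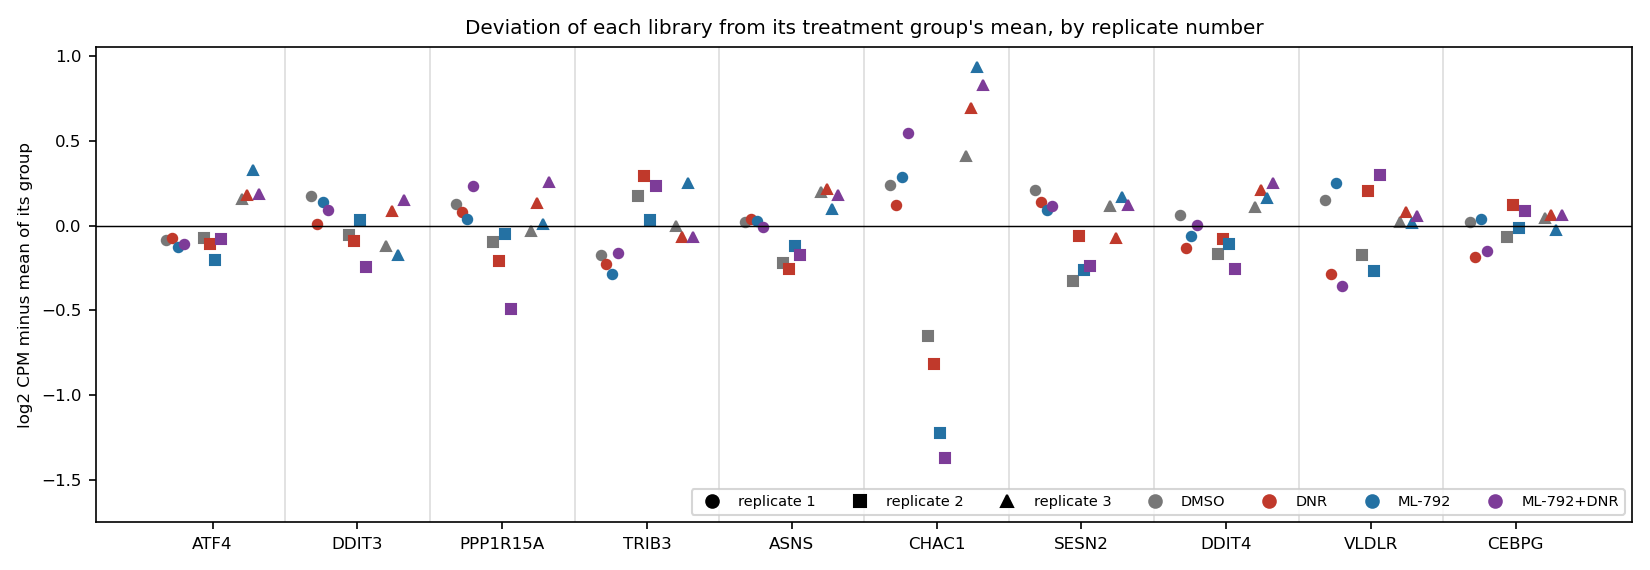
Log2 CPM of each library minus the mean of its treatment group (vertical axis) for the 10 genes, with circles, squares and triangles for replicates 1, 2 and 3 and colours for the groups. CHAC1 spans −1.37 to 0.94, with replicate 2 lowest in every group, whereas CEBPG spans −0.18 to 0.12.

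By Pearson r of log2 CPM over the 12 libraries, which share their 4 treatments and 3 replicate numbers, the tested genes most like PPP1R15A were STX11 (r = 0.990), ICAM1 (0.989), SAT1 (0.989) and CYLD (0.989). SAT1 had mean levels of 20.6, 139.5, 16.7 and 85.5 CPM in DMSO, DNR, ML-792 and ML-792+DNR. Those most like DDIT3 were SH2B3 (0.987), BSDC1 (0.977), WDR48 (0.976) and GCNT4 (0.974), with SH2B3 at 56.0, 93.6, 55.3 and 62.7 CPM. Those most like VLDLR were BTN3A2 (0.989), RHOU (0.987), SLC30A1 (0.981) and DPH7 (0.980), with RHOU at 28.8, 10.7, 24.8 and 13.8 CPM. Those most like ATF4 were EXOSC6 (0.941), LILRA2 (0.932), PREX1 (0.932) and FPR2 (0.930), with lower values of r, and FPR2 and GCNT4 lay under 1 CPM in all 4 groups.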

How the data were processed

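Polyadenylated RNA of 12 HL-60 libraries was sequenced as single-end reads of 50 bases. The submitters' processing notes name TopHat2 2.1.1, Bowtie2 2.3.5.1, HTSeq 0.11.1, Cufflinks 2.2.1, Picard and DESeq2 on hg19, and the deposited values used here are the authors' raw read counts per gene (whether reads were counted by strand is not stated in the sources read). The 5 summary lines of the counter were left out; 65.3% to 67.4% of the records lay in genes. A table of size-factor-scaled values and one of the authors' fold changes and adjusted p-values were not used.

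Counts were fitted with edgeR 4.0.16 (R 4.3.3; filterByExpr with a minimum count of 10, TMM, quasi-likelihood test, 1 term for the 4 groups), and p-values were adjusted over 13696 genes. A call needed an adjusted p under 0.05 and at least 2-fold. CPM values are TMM-scaled, and intervals are 95%. DESeq2 1.42.0, limma 3.58.1 voom, other scalings, filters and fold minimums, each library left out, and the replicate block were alternatives. Fits were tested on simulated data with 13479 genes, where 46 of 50 genes with a log2 change of 1.5 were called for DNR against DMSO. Changes smaller than this were not simulated, so their recovery was not tested.

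The 10 genes and the pathway lists were chosen with earlier results of these data known. From each list, up to 3 called genes with the largest change per comparison are named or, with none called for DNR, the 2 most abundant. Likeness is given for ATF4, DDIT3, PPP1R15A and VLDLR.

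Same-numbered libraries deviated together (r over 0.1 in every pair) in the 4 comparisons other than DNR against DMSO, where replicate 1 gave r = 0.0852; the study's methods name independent experiments. The 13 mitochondrial genes carry no prefix in the table and were matched by symbol. Results for 1 of the lists are not reported here.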

Additional observations from a re-analysis of the deposited data

How the results depend on the processing

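Without the fold minimum, 6 of the 10 genes passed for DNR against DMSO, 4 for ML-792+DNR against DMSO, 3 for ML-792+DNR against DNR, 5 for ML-792+DNR against ML-792 and 2 for the mean ML-792 effect, and with a minimum of 1.5-fold 3, 3 and 1 passed in the last 3 of these. On leaving out 1 library at a time the counts with the 2-fold minimum ranged from 3 to 3, 2 to 3, 0 to 1 and 1 to 2 in the first 4 comparisons; PPP1R15A was added without ML-792+DNR replicate 3 against DNR, and VLDLR without ML-792+DNR replicate 2 against DMSO and ML-792 or without ML-792 replicate 2. Of 1150 recomputed values of the 10 genes 1146 kept their call, 4 gained it and 0 lost it or reversed; 58 values without a call changed sign. On the adjusted p alone, 11 results were lost with replicates 2 and 3 only, and the cause was not tested. The replicate block changed no count with the 2-fold minimum. For DNR against DMSO, where the numbers were not taken to pair the libraries, it moved the count on the adjusted p alone from 6 to 8 (adding ATF4 at 0.0111 and CEBPG at 0.0293) while the share of all tested genes went from 30% to 42.1%, and for the mean ML-792 effect from 2 to 6, with 1.54% and 6.51% of all tested genes. It left the interaction at 0. Among genes of the pathway lists, CEBPD in ML-792+DNR against DMSO and CEBPB in ML-792+DNR against ML-792 lost their call in 5 alternatives each. With 3 replicates, the wide interval of CHAC1 limits what its values can show.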
